A study of Xenopus laevis with 12 samples.

Results

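The sites described here are the Sox3 peaks of the stage 11.5 neural plate border that already lay under a Sox3 peak in the stage 9 blastula. A stage 11.5 peak on an assembled chromosome was counted as held when it shared at least 1 bp with a stage 9 peak, and the stage 9 peaks it touched are called its partners. There were 3034 held peaks among the 4337 stage 11.5 peaks on chromosomes (70.0%), out of 129376 peaks in both lists together. Their 2946 partners were 2.56% of the 115224 stage 9 peaks on chromosomes. Both shares follow from the rule, which used the positions of the peaks in the 2 lists, and nothing is read from them here.

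Sox3 is a SoxB1 transcription factor, which binds the minor groove of DNA through an HMG box and bends it. SoxB1 factors are expressed in pluripotent cells, where they bind together with POU factors of the Oct4 family, and later in the neural plate. They are counted among the pioneer factors, which can bind sites in closed chromatin. The neural plate border is the strip of ectoderm between neural plate and epidermis from which neural crest and placodes arise.

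At stage 11.5 the study had 3 libraries of wild-type Xenopus laevis explants injected with mRNA for Myc-tagged Sox3 and given wnt8a and chordin mRNA as well to turn them into neural plate border, with 3 libraries of wnt8a and chordin explants without tagged Sox3 as controls. At stage 9 it had 3 libraries of blastula animal pole explants injected with Myc-tagged sox3 mRNA and 3 libraries of explants without it. The protein that was precipitated with the anti-Myc antibody was therefore the injected one in every Sox3 library, and each library held pooled explants. Chromatin was cut and tagged with the transposase Tn5 on the beads. A peak list holds no marker levels, so the labelled tissues could not be checked against marker genes. Each stage has 1 list, with no values per replicate and no read depth, and stage 11.5 was sequenced on another instrument (NovaSeq) than stage 9 (NextSeq). The stage 9 list says in its header that all replicates entered the call, and how many entered the stage 11.5 call is not given in its header. Stage cannot be told apart from the wnt8a and chordin mRNA, which only the stage 11.5 explants received. Differences between the stages and differences of depth, sequencer and number of libraries called cannot be told apart either, and no test between the stages was made. Shares are given with Wilson 95% intervals, which cover only the error of counting, because peaks cannot stand in for replicates.

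Sites that were held were mostly narrower at the neural plate border than in the blastula. The median width was 169 bp at stage 11.5 (quartiles 107 and 259 bp), against 589.5 bp in the stage 9 partner (quartiles 414 and 780 bp). Where a held peak had several partners, the one sharing the most bases with it was used. The width ratio, stage 11.5 over stage 9, had a median of -1.69 on the log2 scale (quartiles -2.40 and -0.96), which is 0.309 times the stage 9 width. The size of this ratio rested on the overlap rule and the area minimum. It was -0.54 in the 622 pairs in which at least 50% of both peaks was covered and -1.04 in the 696 pairs with an area of at least 100 in both lists. The stage 11.5 peak was narrower in 2828 of the 3034 pairs (93.2%, interval 92.3 to 94.1%), wider in 204 and of equal width in 2. In 2246 pairs (74.0%) it had at most 50% of the partner's width. Peaks outside the pairs differed in the same direction. The stage 11.5 peaks on chromosomes that were not held had a median width of 92 bp, and the stage 9 peaks that were no partners 224 bp. A difference in this direction was thus not particular to the held sites. The held peak whose width is the median, which is all it was chosen for, lay in the first of 14 introns of a transcript on chromosome 1L, from 33613042 to 33613210 on the 9.2 genome, with 169 bp at stage 11.5 inside a stage 9 peak of 860 bp.

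**Figure D1:**
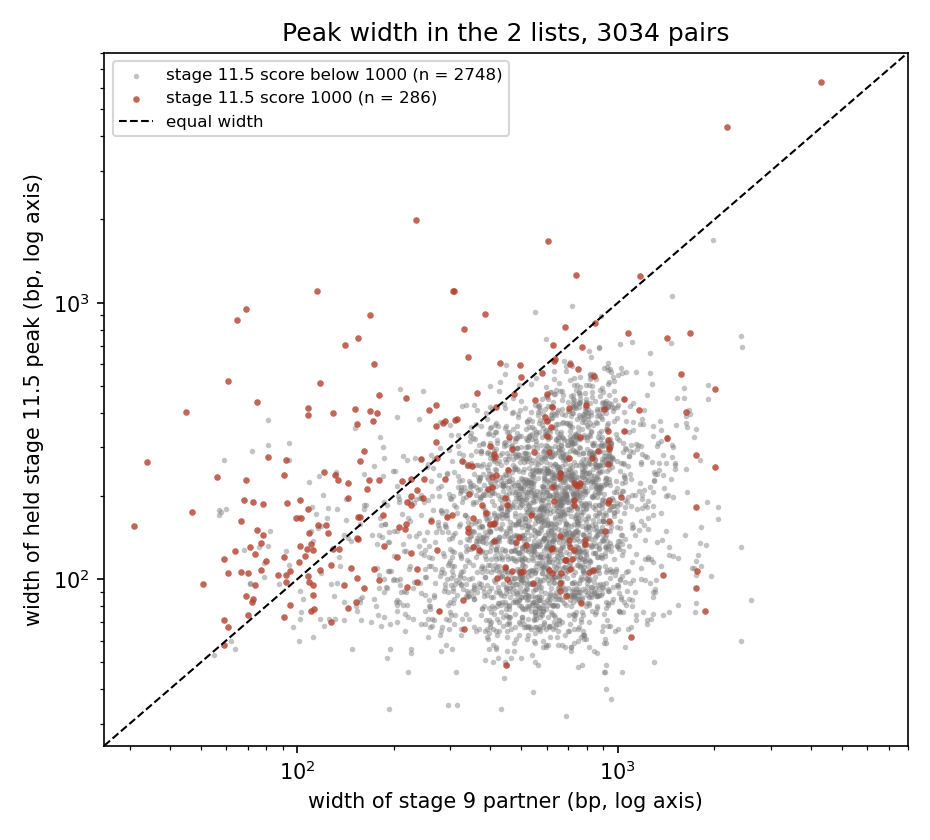
Width of each held stage 11.5 peak (vertical, bp, log axis) against the width of its stage 9 partner (horizontal, bp, log axis), 1 point per pair, with red points for the 286 held peaks at the maximum score of 1000 and grey points for the 2748 below it. Most points lie below the dashed line of equal width (2828 of 3034), and the red points make up much of what lies above it.

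The width of a site at stage 9 went only weakly with its width at stage 11.5. Across the 3034 pairs the widths had a Spearman correlation of 0.19 and, on the log2 scale, a Pearson correlation of 0.18. The points come from the same 2 lists and share their depth. When the pairs were put into 4 groups of similar size by the stage 9 width, the median stage 11.5 width was 143 bp, 156 bp, 189 bp and 204 bp from the narrowest to the widest group. The median stage 9 widths in those groups were 284.5 bp, 504 bp, 678 bp and 922 bp. The width of the stage 9 peak also sets how readily a peak of the other list touches it, so the partners' widths are not independent of the rule.

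The smaller peak usually lay entirely within the larger one. The required overlap and the wider stage 9 partners by themselves favour this, and the part of width was not tested. In 2443 pairs (80.5%, interval 79.1 to 81.9%) the stage 11.5 peak lay wholly inside its stage 9 partner. In 117 pairs (3.86%) it covered the whole partner, and in 474 pairs (15.6%) each peak reached past the other on one side. A median of 29.5% of the stage 9 peak was covered by its stage 11.5 partner (quartiles 18.1 and 47.2%). The share of stage 11.5 peaks lying inside their partner was 51.7% in the group with the narrowest stage 9 peaks and 96.2% in the group with the widest.

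Partners had to overlap, so the distance between their centres is limited by their widths, and the positions below describe the pairs the rule chose. Centres were a median of 76 bp apart (quartiles 33.5 and 139 bp), and within 100 bp in 1862 pairs (61.4%, interval 59.6 to 63.1%). Centres lay more than 500 bp apart in 33 pairs. There was little lean to either side, with a median signed shift of 2 bp along the chromosome. The centre of the stage 11.5 peak fell inside the stage 9 partner in 2897 pairs (95.5%), and the stage 9 centre fell inside the stage 11.5 peak in 1722 pairs (56.8%). Among the 2443 nested pairs, the offset was expressed on a scale where 0 means that the centres coincide and 1 that the edges do. Its median was 0.36 (quartiles 0.17 and 0.61).

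**Figure D2:**
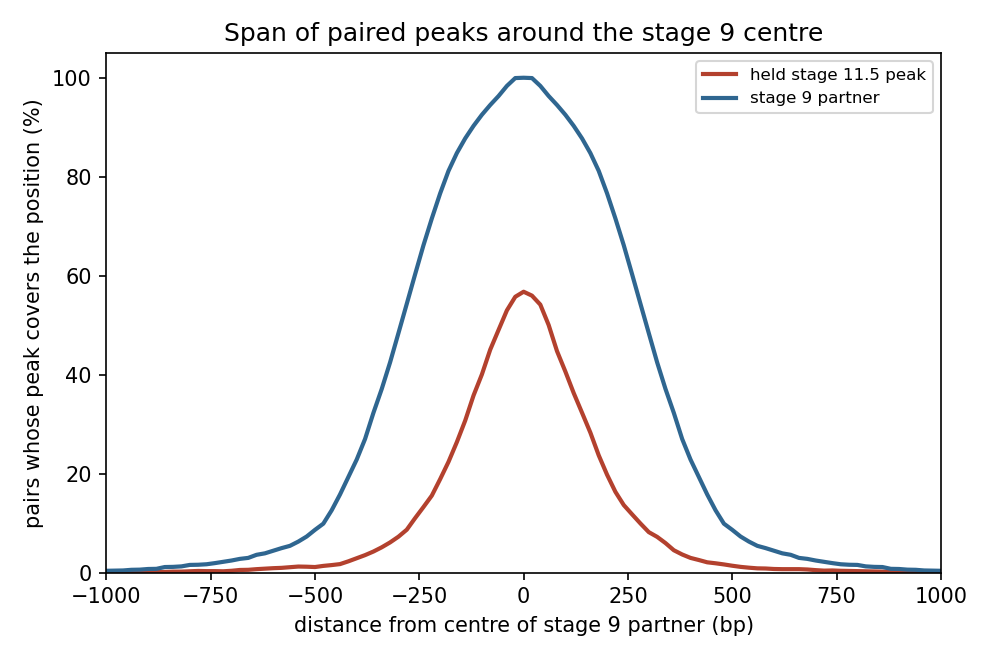
Percent of the 3034 pairs whose held stage 11.5 peak (red) or stage 9 partner (blue) covers a position, against the distance of that position from the centre of the stage 9 partner in bp. The stage 11.5 curve is the narrower one and has its maximum of 56.8% at the stage 9 centre, and at 200 bp it covers 18.9% of pairs on one side and 19.8% on the other.

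Area, the second measure, was taken as the peak score multiplied by the width and divided by 1000. The score is the peak caller's mean significance over the peak, a whole number that stops at 1000, and areas at that maximum are lower bounds. The median area of held peaks was 51.2 at stage 11.5 (quartiles 31.2 and 98.8), against 566 in the stage 9 partners (quartiles 347 and 763). Outside the pairs the median was 34.9 in the other stage 11.5 peaks and 95.7 in the other stage 9 peaks. The area was smaller at stage 11.5 in 2868 pairs (94.5%, interval 93.7 to 95.3%), and the median log2 area ratio was -3.18 (quartiles -4.06 and -2.09). It was -1.64 with at least 50% of both peaks covered and -1.88 with an area of at least 100 in both lists. Area grows with read depth, so the ratio compares the 2 lists and is no measure of occupancy.

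Much of this ratio met the ceiling of the score. In 2032 pairs (67.0%) the stage 9 score alone was at 1000, and there the median log2 ratio of -3.60 is an upper bound. In 716 pairs (23.6%) neither score was at the ceiling. Their median log2 area ratio was -2.49 (quartiles -3.54 and -1.31), and it was below 0 in 670 of them (93.6%, interval 91.5 to 95.1%). Width and score both took part. In these pairs the median log2 width ratio was -1.52 and the median log2 score ratio -0.97, with a median width of 140 bp at stage 11.5 against 435.5 bp at stage 9 and a median score of 309 at stage 11.5 against 617 at stage 9. In the 241 pairs with both scores at 1000 the area ratio equals the width ratio, with a median of -0.49. In the 45 pairs with the stage 11.5 score alone at 1000 the area was larger at stage 11.5 in 37 and smaller in 8, with a median log2 ratio of 1.69 that is a lower bound.

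**Figure D3:**
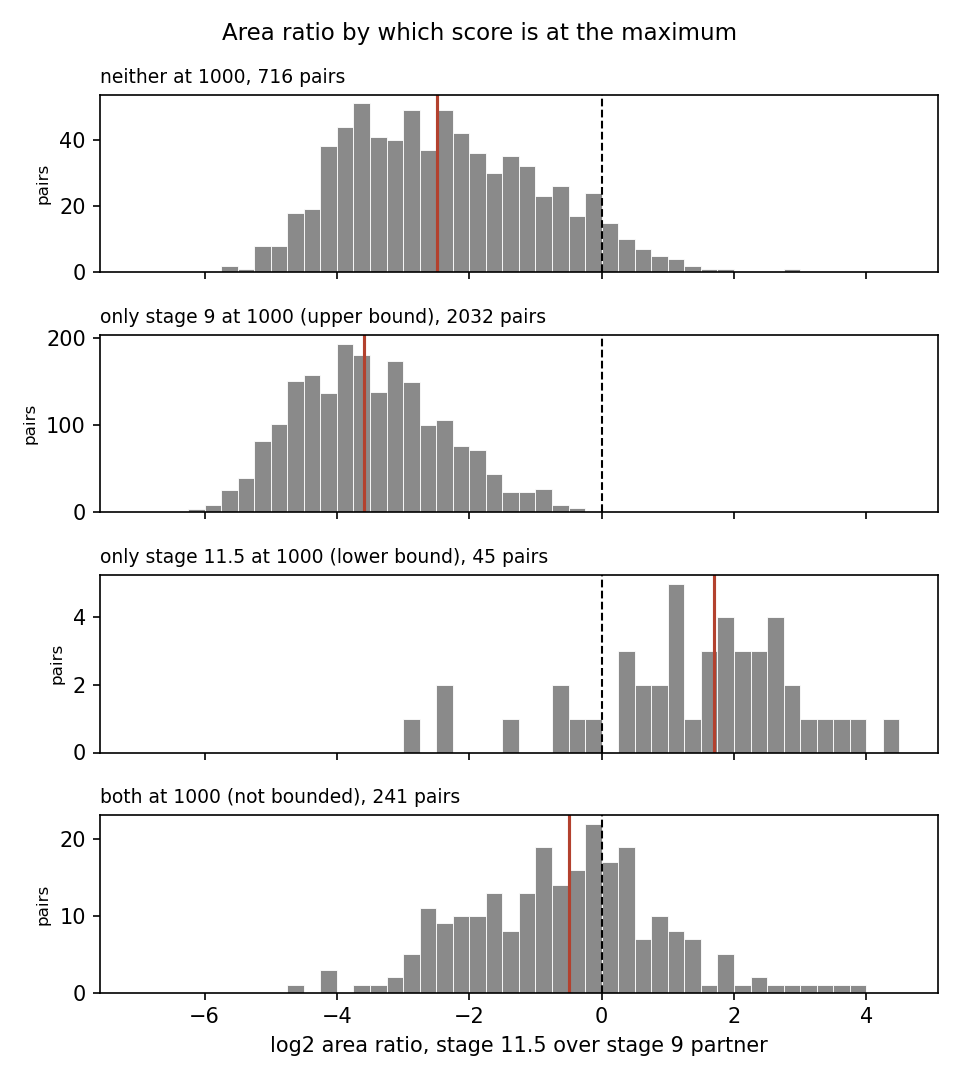
Number of pairs (vertical) by log2 area ratio, stage 11.5 over stage 9 partner (horizontal), in 4 panels by which of the scores is at the maximum of 1000, with the panel's median in red and equal area as a dashed line. The medians are -2.49 where neither score is at the maximum, -3.60 where only stage 9 is, 1.69 where only stage 11.5 is and -0.49 where both are.

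Rank within each list does not compare areas across lists. By this measure the partners were among the larger stage 9 peaks, with a median percentile of 92.8 in the stage 9 list, while the held peaks had a median percentile of 54.3 in the stage 11.5 list. Area includes the width, and a wider stage 9 peak is touched more readily. The partners' median percentile by width was 91.3, so their rank by area is not independent of the rule. The partner was in the upper 10% of its list by area in 1800 pairs (59.3%), and the held peak in 345 pairs (11.4%). Areas of partners had a Spearman correlation of 0.11 across the 3034 pairs and 0.08 across the 716 pairs below the ceiling. Among the held pairs, the area of the blastula peak thus went only weakly with that of the border peak. Blastula peaks without a border partner are not in these correlations, and many of the stage 9 scores stood at the ceiling.

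The held peaks also differed from the 1303 stage 11.5 peaks that touched no stage 9 peak. Their median width was 169 bp against 92 bp for the others (quartiles 71 and 131 bp), and a wider peak touches a peak of the other list more readily. Their median score was lower, 342 against 428, and their median area larger, 51.2 against 34.9. The list has a minimum area of 20, so a wider peak can enter it with a lower score. The part of this minimum in the difference of scores was not tested. The maximum score was reached by 286 held peaks (9.43%, interval 8.44 to 10.5%) and by 307 of the others (23.6%, interval 21.3 to 25.9%). Held peaks at the maximum score were gathered where the stage 9 partner was narrow. They were 22.8% of the pairs in the group with stage 9 widths up to 414 bp, against 3.43%, 6.05% and 5.42% in the next 3 groups.

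The 204 sites that were wider at the border than in the blastula lay mostly where the stage 9 peak was narrow. Of them, 185 fell in the group with stage 9 widths up to 414 bp. Being wider is judged against that same stage 9 width, so the definition by itself favours this. The median width of the 204 sites was 245.5 bp at stage 11.5 against 140.5 bp at stage 9. The stage 11.5 score was at the maximum in 114 of them (55.9%, interval 49.0 to 62.5%), against 170 of the 2828 narrowed pairs (6.01%, interval 5.19 to 6.95%). The stage 9 score was at the maximum in 110 of the widened pairs (53.9%, interval 47.1 to 60.6%), and in 74.3% of all 2946 partners. Intergenic peaks were 52.9% of the widened pairs (interval 46.1 to 59.7%) and 41.0% of the narrowed ones (interval 39.2 to 42.8%), and introns held 22.1% and 37.2%. Within the group of narrow stage 9 peaks alone, 104 of the 185 widened pairs (56.2%, interval 49.0 to 63.2%) were at the maximum score, against 68 of the 574 narrowed ones (11.8%, interval 9.45 to 14.7%). There the introns held 22.7% of the widened (interval 17.3 to 29.3%) and 33.8% of the narrowed pairs (interval 30.0 to 37.8%), while the intergenic shares of 52.4% and 44.9% had overlapping intervals.

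The single sites with the largest stage 11.5 areas belonged to this set. The largest was an intergenic peak of 6267 bp on chromosome 3L, from 143064125 to 143070391, which lay 10510 bp upstream of the nearest transcription start site (TSS). Its main stage 9 partner had 4299 bp, from 143065808 to 143070106. The next had 4320 bp at stage 11.5 and 2189 bp in its main partner, and lay on chromosome 8L from 99756635 to 99760954, 7381 bp upstream of a TSS. The third, on chromosome 2S from 157247160 to 157249156, had 1997 bp against 234 bp in its main partner. The fourth, with 1675 bp against 606 bp, was a promoter peak on chromosome 2S from 152381255 to 152382929. The fifth had 1257 bp against 738 bp and lay in an exon on chromosome 4S from 49401890 to 49403146. All 5 were at the maximum score in both lists, so their areas are lower bounds.

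The extremes among the 716 pairs below the ceiling ran from a 7.4-fold larger to a 49.1-fold smaller area at stage 11.5. The pair with the largest ratio was a peak at a transcription termination site on chromosome 3S from 119816128 to 119816504. It had an area of 235 and a width of 377 bp at stage 11.5, against 31.8 and 81 bp at stage 9. The next 4 pairs had ratios of 3.54, 3.25, 2.71 and 2.38, and all 5 were wider at stage 11.5, the second of them least, with 271 bp against 267 bp. The pair with the smallest ratio was in the first of 17 introns of a transcript on chromosome 3L, from 77566369 to 77566490. It had an area of 35.5 and a width of 122 bp at stage 11.5, against 1744 and 1774 bp at stage 9. In the other 4 pairs at this end the stage 9 area was 48.2, 45.2, 38.0 and 35.9 times the stage 11.5 area, and the stage 11.5 widths were 50 to 118 bp against 871 to 1293 bp at stage 9.

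Most sites had a single partner in each list. Of the held peaks, 3014 had 1 stage 9 partner, 15 had 2, 3 had 3 and 2 had 5. Of the partners, 2837 carried 1 held peak, 101 carried 2 and 8 carried 3. There were 2790 pairs in which each peak touched only the other.

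The 109 stage 9 peaks that carried several held peaks were wide, with a median of 798 bp (quartiles 655 and 1052 bp). The held peaks within them were a median of 162 bp apart, with a smallest gap of 101 bp. That is also the smallest gap between any neighbouring peaks in either list, so closer peaks are not found there. Of the 8 with 3 held peaks each, the first 3 by chromosome and position are given. In a stage 9 peak of 2415 bp on chromosome 1S from 108699208 to 108701622, the held peaks had 131, 60 and 759 bp. They lay at a transcription termination site and in a promoter. In another, 1751 bp on chromosome 1L from 217939393 to 217941143, the held peaks had 281, 104 and 93 bp, and the first of them was a promoter peak centred 91 bp past a TSS. The third, of 917 bp on chromosome 1S from 156438909 to 156439825, carried held peaks of 79, 49 and 97 bp in the introns and an exon near the end of a transcript.

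Fewer held peaks had several partners than the reverse. Stage 9 partners were the wider peaks, which by itself favours this order, and the part of width was not tested. The 20 held peaks with several partners had a median width of 880.5 bp, and 14 of them were at the maximum score. Their 49 stage 9 partners had a median width of 155 bp. The largest peaks on chromosomes 2S and 8L, given above, each spanned 5 stage 9 peaks, and the largest on 3L spanned 3.

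The rule's edge was thin. Of the held peaks, 20 shared at most 10 bp with their partner, and the smallest overlaps were 1, 2 and 3 bp. The 1 bp overlap was that of a 128 bp exon peak on chromosome 5S from 5981326 to 5981453. Just outside, 3 peaks directly abutted a stage 9 peak without sharing a base. They had 117 bp on chromosome 1L, 67 bp on 4S and 148 bp on 5S, and only the one on 5S was at the maximum score. Of the 1303 stage 11.5 peaks not held, 16 lay within 10 bp of a stage 9 peak, 88 within 100 bp and 338 within 1 kb. Their median distance to one was 4576 bp.

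By the authors' annotation, the held sites lay mostly in intergenic DNA and introns. Intergenic peaks numbered 1269 (41.8%, interval 40.1 to 43.6%), intronic peaks 1096 (36.1%, interval 34.4 to 37.8%), promoter peaks 385 (12.7%), exonic peaks 148 (4.88%) and peaks at transcription termination sites 136 (4.48%). Stage 11.5 peaks that were not held were less often intronic, at 26.7% (interval 24.4 to 29.2%), and more often intergenic, at 48.8% (interval 46.1 to 51.5%), or exonic, at 7.75% (interval 6.42 to 9.33%). Promoter peaks made up 12.7% of both sets. Read the other way, 75.9% of intronic (interval 73.6 to 78.0%), 72.3% of termination site and 69.9% of promoter stage 11.5 peaks were held. So were 66.6% of intergenic peaks and 59.4% of exonic peaks (interval 53.2 to 65.3%). The share over all stage 11.5 chromosome peaks was 70.0%. It lay within the intervals at termination sites (65.5 to 78.2%) and promoters (65.9 to 73.6%). Held peaks were chosen by overlap and are wider than the others, and these differences were not tested.

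The same classes set the partners apart from the rest of the blastula list in another way. Introns held 36.5% of the partners (interval 34.8 to 38.3%) against 41.3% of the other stage 9 peaks (interval 41.0 to 41.6%). Promoters held 12.2% of the partners (interval 11.1 to 13.5%) against 8.47% of the others (interval 8.31 to 8.64%). Intergenic shares were 41.9% and 41.6%, with overlapping intervals. The intronic share of the held sites therefore stood above that of the other border peaks and below that of the other blastula peaks. These differences were not tested, since the partners were chosen by overlap and are larger than the other stage 9 peaks.

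Within genes the held sites were frequent in the early introns. The first intron held 393 of the 1096 intronic peaks (35.9%, interval 33.1 to 38.7%), and the first 2 introns 613 (55.9%). The first intron held 31.3% of the intronic stage 11.5 peaks that were not held (interval 26.7 to 36.4%), 35.3% of the intronic partners (interval 32.5 to 38.2%) and 29.8% of the other intronic stage 9 peaks (interval 29.4 to 30.3%). The intervals of partners and other stage 9 peaks did not overlap, and those of held and other stage 11.5 peaks did. These intervals cover counting error only, and the differences were not tested. The partners were chosen by overlap and are larger than the other stage 9 peaks. Intron lengths were not analysed here, and first introns are often the longest.

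Partners mostly carried the same annotation. They had to overlap and the annotation is a label of position, so this agreement is largely set by the rule. The class was the same for both partners in 2929 pairs (96.5%, interval 95.8 to 97.1%) and the nearest transcript in 2969 (97.9%). Intergenic peaks had an intergenic partner in 1264 of 1269 pairs and intronic peaks an intronic one in 1076 of 1096. Agreement was lowest for exonic peaks, with an exonic partner in 112 of 148 pairs (75.7%). Of the other 36, 19 had an intronic partner and 12 a promoter partner. The lengths of the exons were not analysed here.

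Most sites narrowed in every class, and somewhat less so in intergenic DNA than in introns. The median log2 width ratio was -1.84 at promoters, -1.76 in introns, -1.74 at termination sites, -1.72 in exons and -1.59 in intergenic DNA. The 95% interval of the median, which covers counting error only, ran from -1.66 to -1.51 in intergenic DNA and from -1.83 to -1.69 in introns. Widened sites were 8.51% of intergenic pairs (108 of 1269, interval 7.10 to 10.2%) and 4.11% of intronic pairs (45 of 1096, interval 3.08 to 5.45%). Median stage 9 widths were 578 bp (lower quartile 387 bp) in intergenic pairs and 608 bp (lower quartile 439 bp) in intronic pairs. The part of stage 9 width in these contrasts was not tested. The median log2 area ratio was -3.27 in introns, -3.17 at promoters, -3.11 in intergenic DNA, -3.03 in exons and -2.95 at termination sites. Centres lay farthest apart at promoters, with a median of 95.5 bp (quartiles 42.5 and 169 bp), and in exons, with 95.25 bp, against 71.5 bp in introns and in intergenic DNA. The quartile ranges of the centre distances overlapped in all classes.

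The promoter class is itself mostly upstream of the start, with 92.6% of the 11307 promoter peaks of both lists between 1000 bp upstream and 100 bp downstream of the TSS and 72.6% upstream of it. Held promoter peaks were placed alike. Of the 385, 282 (73.2%, interval 68.6 to 77.4%) had their centre upstream of the TSS and 219 (56.9%) within 200 bp of it, with a median position of 117 bp upstream. The largest after the chromosome 2S peak given above was on chromosome 5S from 59107011 to 59107916, centred 189 bp upstream, with 906 bp at stage 11.5 against 168 bp at stage 9. The next 3 were narrower at stage 11.5, with 693 against 773 bp, 578 against 753 bp and 505 against 813 bp. They lay on chromosomes 4L, 1L and 8L, centred 294, 413 and 12 bp upstream.

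Held sites lay a median of 8043.5 bp from the nearest TSS (quartiles 1962 and 23839 bp). It was 8738 bp in the other stage 11.5 peaks, 8102 bp in the partners and 11138.5 bp in the other stage 9 peaks. Of the held peaks, 1202 (39.6%, interval 37.9 to 41.4%) lay within 5 kb of a TSS, against 38.8% of the other stage 11.5 peaks (interval 36.1 to 41.4%). The share was 39.4% in the partners (interval 37.6 to 41.2%) and 32.7% in the other stage 9 peaks (interval 32.4 to 33.0%). In TSS distance the held sites thus stood close to the other border peaks, with overlapping intervals. Their partners lay nearer to a TSS than the rest of the blastula list, but they were chosen by overlap and are larger peaks. Beyond 100 kb were 97 held peaks (3.20%, interval 2.63 to 3.88%) and 4.60% of the other stage 11.5 peaks (interval 3.59 to 5.88%).

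**Figure D4:**
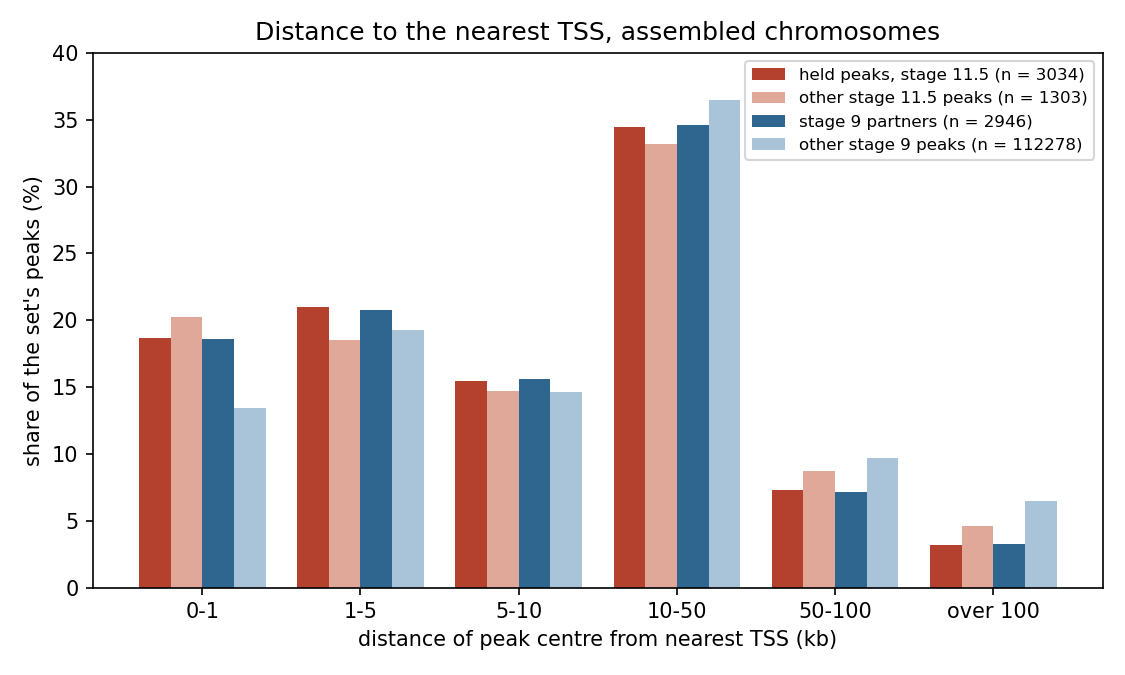
Share of peaks (vertical, percent) by distance of the peak centre from the nearest TSS (horizontal, kb), for held stage 11.5 peaks (dark red), other stage 11.5 peaks (light red), stage 9 partners (dark blue) and other stage 9 peaks (light blue). Within 1 kb lie 18.7% of held peaks, 20.3% of other stage 11.5 peaks and 18.6% of partners, against 13.4% of other stage 9 peaks.

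Centres lay about as often nearer to the start as farther from it. Among the 2969 pairs with the same nearest transcript, the stage 11.5 centre was nearer to the TSS in 1499 (50.5%, interval 48.7 to 52.3%), farther in 1455 (49.0%) and at the same distance in 15. The median change of distance was -2 bp (quartiles -75 and 69 bp).

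Xenopus laevis is an allotetraploid, whose chromosomes come in long (L) and short (S) copies. Held peaks were 1750 of the 2501 stage 11.5 peaks on L chromosomes (70.0%, interval 68.1 to 71.7%) and 1284 of the 1836 on S chromosomes (69.9%, interval 67.8 to 72.0%). The share ran from 63.2% on chromosome 6L (146 of 231, interval 56.8 to 69.2%) to 75% on 9_10L (189 of 252, interval 69.3 to 79.9%) and on 4L (174 of 232). Narrowing was seen on each of the 18 chromosomes, with median log2 width ratios between -1.90 and -1.49.

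Sites were grouped by the nearest transcript, which is a label of position and does not show which gene a site acts on. The files give these transcripts by internal numbers, of which 0 of 2537 matched the gene table used here, so genes are not named. Of these 2537 transcripts, 2134 had 1 held peak, 331 had 2, 58 had 3, 8 had 4, 5 had 5 and 1 had 7. The 403 transcripts with several held peaks took in 900 of the 3034 sites, spread over a median of 5616 bp (quartiles 1506 and 17901 bp). In 83 of them, held peaks lay on both sides of the TSS. A held promoter peak was present at 372 transcripts, of which 59 had another held peak. Neighbouring held peaks were a median of 362955 bp apart along the chromosome, and 418 of 3016 gaps were at most 10 kb.

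Most transcripts nearest to a partner also had stage 9 peaks that were not overlapped. The 2534 transcripts nearest to a partner had 13200 stage 9 peaks, a median of 4 each (quartiles 2 and 7, at most 51), and 2946 of these peaks (22.3%) were overlapped. Each of these transcripts was chosen for at least 1 overlapped peak, which sets a floor under that share. Over all stage 9 chromosome peaks the overlapped share was 2.56%. Of the 2173 transcripts with 2 or more stage 9 peaks, 35 had all of them overlapped. The partner was often the largest. The stage 9 peak of largest area was overlapped at 1456 of these 2173 transcripts (67.0%) and the smallest at 152 (6.99%). The peak nearest to the TSS was overlapped at 699 (32.2%) and the farthest at 564 (26.0%), a smaller contrast than that by area. Pooled over all stage 9 peaks of these transcripts 20.1% were overlapped. That share is per peak and gives more weight to transcripts with many peaks. It is therefore no baseline for the shares per transcript. A larger stage 9 peak is also wider and touched more readily, and the part of width in these shares was not tested.

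Held peaks of the same transcript varied somewhat less in their change than held peaks over all transcripts. The SD of the log2 width ratio was 0.97 within transcripts (900 pairs at 403 transcripts), against 1.15 over the same pairs without regard to transcript and 1.12 over all 3034 pairs. For the log2 area ratio the SDs were 1.33, 1.61 and 1.60. Pairs that share a stage 9 partner share its width. Without them, 666 pairs at 304 transcripts had SDs within transcripts of 0.99 for width and 1.40 for area, against 1.12 and 1.62 over the same pairs.

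The transcript with the most held peaks, listed as rna62570, had 7 of them among 14 stage 11.5 peaks. They lay on chromosome 9_10S between 44283586 and 44293808, from 43198 to 52989 bp upstream of its TSS. All 7 were intergenic and at the maximum score, with 100 to 465 bp at stage 11.5, against 101 to 451 bp in their main stage 9 partners. Of these sites 4 were wider at stage 11.5 than at stage 9, and 3 narrower. The widest of them, 465 bp, had a partner of 180 bp, and the narrowest, 100 bp, shared a partner of 451 bp with a held peak of 186 bp. Over all held sites 93.2% narrowed, but most partners at this locus were narrow and all 7 held peaks were at the maximum score. Among all pairs with that score at stage 11.5 and stage 9 widths up to 414 bp, 104 widened and 68 narrowed. Those counts include the pairs of this locus with such narrow partners and leave out the pairs with the 451 bp partner. Whether the locus differs from such sites was not tested.

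At the other transcripts with the most held peaks, all 5 held sites narrowed. That listed as rna95949 had 5 held peaks on chromosome 5L between 122974276 and 123002013, of which 1 was a promoter peak centred 788 bp upstream of the TSS and 4 lay in the fourth of its 9 introns. They had 148 to 540 bp at stage 11.5 against 671 to 936 bp at stage 9. A pair of them, of 281 and 295 bp, lay in the same stage 9 peak of 936 bp. The next transcript had 5 held peaks on chromosome 9_10L between 55919054 and 56005319, with 260 to 591 bp at stage 11.5 against 379 to 933 bp at stage 9. A transcript on chromosome 4S, between 13042341 and 13106913, had only held peaks at stage 11.5, 5 in number, among 17 stage 9 peaks. They were all intergenic and had 92 to 312 bp against 445 to 810 bp. A transcript on chromosome 1S, between 32666294 and 32720233, likewise had 5 held peaks and no other at stage 11.5, among 13 stage 9 peaks. One lay in its first exon, 113 bp past the TSS, and the others in its introns up to 53875 bp past it, with 77 to 189 bp at stage 11.5 against 154 to 997 bp at stage 9.

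**Figure D5:**
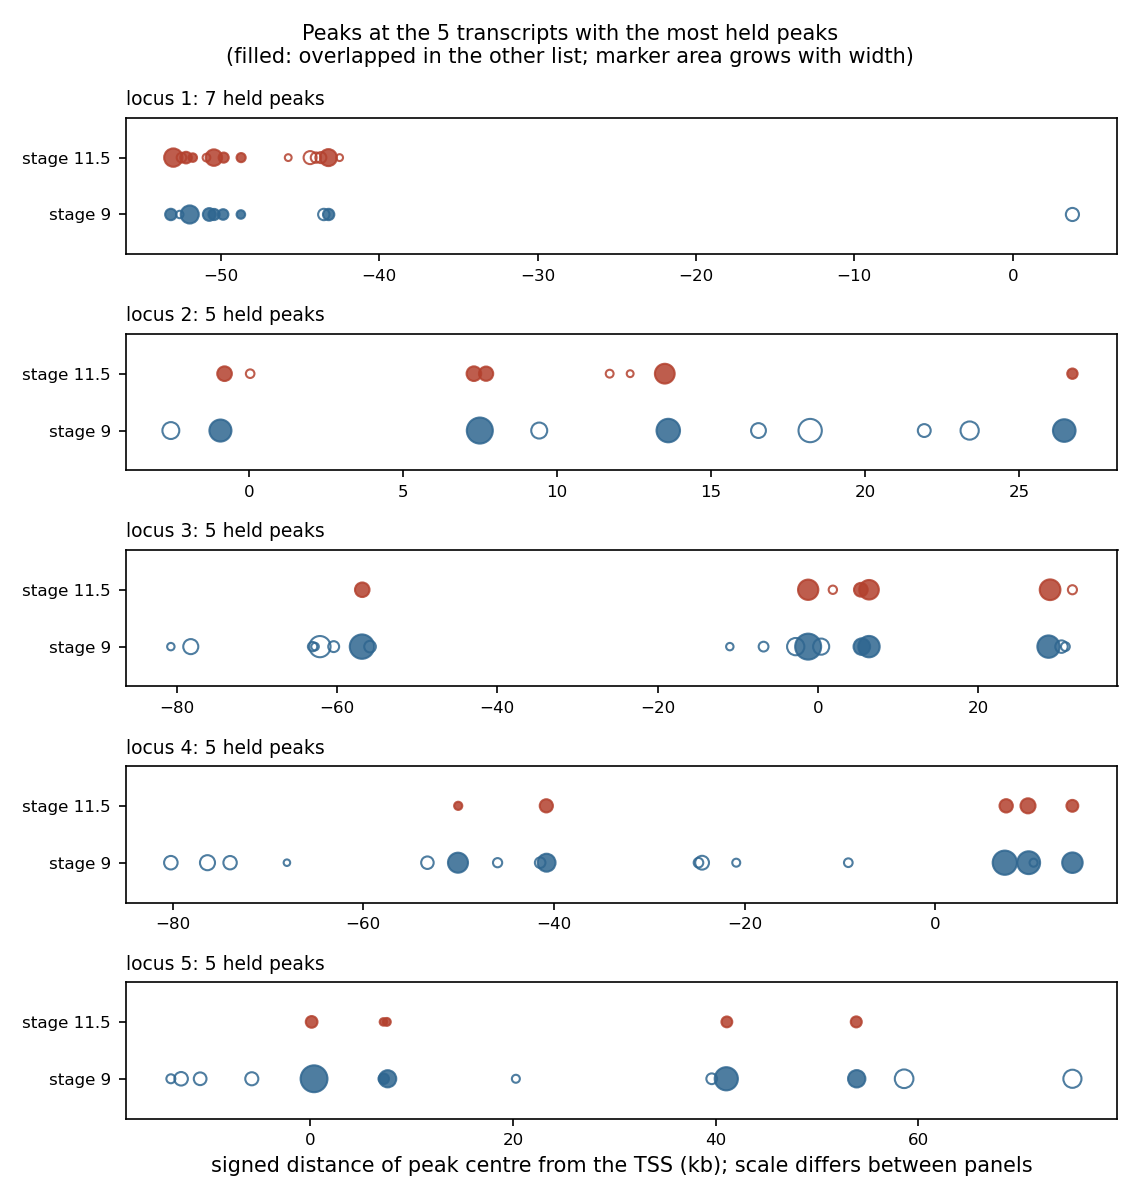
Peaks at the 5 transcripts with the most held peaks, in the order of the text, by signed distance of the peak centre from the TSS in kb (negative is upstream), with stage 11.5 above stage 9, filled markers for peaks that overlap a peak of the other list, open markers for the rest, and marker area growing with peak width. The first locus holds 7 filled and 7 open stage 11.5 markers far upstream of the TSS, while the lowest pair of panels holds only filled stage 11.5 markers, with 17 and 13 stage 9 peaks.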

How the data were processed

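Xenopus laevis explants were assayed by ChIP-seq for Myc-tagged Sox3, with 3 Sox3 and 3 control libraries at each stage. The authors trimmed reads with fastp, aligned them to the 9.2 genome with bowtie2, processed them with samtools (Picard is also in the submitters' notes), called peaks with Genrich (Sox3 libraries against controls, mitochondrial sequence excluded, minimum area 20) and annotated them with HOMER. The deposited peak score is a whole number up to 1000 that follows the significance curve and so depends on depth, which is unknown. Only the stage 9 header says that the call covered all replicates. No replicate values were used and 0 columns were left unassigned. The concentration of the crosslinker is given differently in the labels and in the paper.

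Overlaps (1 bp or more), widths, areas, centres and TSS distances were computed from the lists in pandas 2.3.3 and numpy 2.4.6 (Python 3.11.15), with intervals from scipy 1.17.1 and plots from matplotlib 3.10.9. Coordinates are 1-based. The overlap search was tested on simulated data. The lowest areas were 20.0 at stage 11.5 and 19.9 at stage 9, and no further filter on low values was applied, so every held peak is in the counts. Intervals of shares are Wilson 95% intervals, and intervals of medians are 95% order-statistic (binomial) intervals. No tests were made, because there is 1 list per stage. The members, groupings and loci were chosen with earlier results of these data known. Loci given singly were the 5 transcripts with the most held peaks (ties by summed stage 11.5 area), the 5 largest stage 11.5 areas, the 5 largest and 5 smallest area ratios below the maximum score, the peaks with the most partners (3 of each kind), the 5 largest promoter peaks, the peak of median width, and the 3 closest cases on each side of the rule. Further ties went by chromosome and start. Neural plate border genes named in the study were to be added if the identifiers matched, which they did not. Only the first 2 transcripts are printed by number, and not all loci are given with positions. The gene table is of assembly 10.1. Alternatives covered the overlap rule, the area minimum, scaffolds, the choice of partner, score saturation, joining of neighbours and the distance limit. Sequences, motifs and expression were not analysed here.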

Additional observations from a re-analysis of the deposited data

Results flagged for a closer look

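Outside the assembled chromosomes, 424 of the 963 stage 11.5 peaks on unplaced scaffolds also overlapped a stage 9 peak, a signal in data that the comparisons leave out. They had a median width of 176.5 bp at stage 11.5 against 350 bp at stage 9. Their median log2 ratios were -0.89 for width and -1.48 for area, 124 of them (29.2%) were wider at stage 11.5, and 46.2% were at the maximum score at stage 11.5. No sample groups of 4 or more with values per sample were present, so no sample was compared with the rest of its group.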

How the results depend on the processing

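No paired analysis was possible because there is a single list for either stage and it holds no values per replicate, and for the same reason no replicate could be left out. Of 56 values under alternatives, 26 stayed within the error of the value reported or, for counts, within 1.5 times it, 30 moved beyond it and 0 changed direction. Only the median log2 ratios of width and area could change direction, since counts, shares and centre distances have none. Where at least 50% of both partners had to be covered, 622 peaks were held (14.3% of stage 11.5 chromosome peaks), the median log2 ratios were -0.54 for width and -1.64 for area, centres were 40.25 bp apart and 31.4% lay within 5 kb of a TSS. This rule by construction keeps pairs of similar width. Where 50% of the stage 11.5 peak alone had to be covered, the held share was 66.4% and the width ratio -1.74, and with the stage 11.5 centre inside a stage 9 peak the share was 66.8%. Requiring an area of 40 or more of every peak left 1821 held peaks (75.2%), with log2 ratios of -1.42 for width and -2.66 for area, and requiring 100 left 696 (71.8%), with ratios of -1.04 and -1.88. Such minimums by construction remove the stage 11.5 peaks of small area. With scaffolds included the share was 65.2%, the width ratio -1.62 and the area ratio -3.06. In one-to-one pairs the width ratio was -1.63 and centres were 71 bp apart. The area ratio was -2.49 with both scores below the maximum. With only the stage 11.5 score below it, an alternative added after seeing the data, the width ratio was -1.77 and the area ratio -3.36. Within 1 kb and 10 kb of a TSS lay 18.7% and 55.1% of held peaks. The unknown depth limits all area values and the comparison of widths between the stages. A site absent from a list may lie below its calling minimum.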
